A study of Mus musculus with 6 samples.

Results

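The genes described here are 10 members of the Wnt pathway that are linked to signals given off by liver endothelial cells. They were the ligand genes Wnt2 and Wnt9b, the R-spondin gene Rspo3, the receptor genes Fzd4 and Fzd7, the feedback genes Nkd1, Nkd2 and Axin2, and the transcription factor genes Lef1 and Tcf7. They were chosen by symbol, and all 10 were among the 22905 genes of the count table. The RNA came from primary hepatic stellate cells of mice of the genotype BucheKI/KI-Hep, all of them treated with CCl4, a hepatotoxin used to model liver fibrosis. The series describes overexpression of butyrylcholinesterase in hepatocytes before the stellate cells were isolated. Of the 6 libraries, 3 were labelled PBS and 3 DOX, and genotype and CCl4 were shared by both groups. The age of the animals, the promoter of the introduced gene and the purity of the cells were not stated in the labels. Setting DOX against PBS addresses how the transcripts of the isolated cells differ with that overexpression. DOX in animals without that gene was not analysed here, so DOX itself and the gene cannot be told apart.

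Wnt proteins are secreted lipid-modified ligands that bind Frizzled receptors together with the co-receptors Lrp5 and Lrp6. Binding recruits Dishevelled, stops the Axin-containing complex from degrading beta-catenin, and lets beta-catenin act with TCF/LEF factors on target genes. In the liver, endothelial cells around the central vein are a known source of Wnt2, Wnt9b and Rspo3, which keep pericentral genes on in neighbouring hepatocytes. R-spondins raise the response by removing the ubiquitin ligases Rnf43 and Znrf3, and Axin2, Nkd1 and Nkd2 restrain it.

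Bche, the gene raised by the design, had 8 to 26 counts in the PBS libraries and 582 to 3639 counts in the DOX libraries. Total counts were between 36220282 and 37707364 per library, and the upper limit behind a count of 0, taken as 3 reads, was 0.0758 to 0.0878 CPM (counts scaled by library size). These limits cover counting error only. Nothing in the labels says that replicates came from separate animals, and p-values therefore measure a spread among samples that may be technical. The libraries held RNA of several cell types. The 20 endothelial markers summed to 7679 to 9225 CPM in PBS and 6455 to 7777 CPM in DOX, and the 18 stellate markers to 960.2 to 2233 CPM and 1107 to 1732 CPM. Lrat, which encodes the retinol-esterifying enzyme that defines stellate cells and so the labelled cell type, was detected in every library but low. Its mean in PBS was 0.391 FPKM, the lowest of the 18 stellate markers. FPKM values are as deposited, scaled by library total and gene length without TMM factors. Cdh5, an endothelial junction gene, had 677 FPKM in PBS, the highest of the 20 endothelial markers. The highest stellate marker in PBS, Dcn, had 247 FPKM, and the lowest endothelial marker, Emcn, had 10.1 FPKM. The 18 macrophage markers summed to 4564 to 6947 CPM in PBS and 8473 to 15480 CPM in DOX. Across DOX replicates 1 to 3 the hepatocyte markers summed to 916.5, 301 and 3529 CPM, and Bche had 35.9, 16.4 and 99.3 CPM. Across PBS replicates 1 to 3 that sum was 157.5, 323.4 and 387.4 CPM, and Bche had 0.212, 0.680 and 0.354 CPM. The part of hepatocyte RNA in the Bche values was not tested. By the mean CPM over all 6 libraries, the most abundant markers were Cdh5 and Pecam1 (endothelial), Dcn and Col3a1 (stellate), and Mpeg1 and Lyz2 (macrophage), and no marker was at 0 in every library. In such bulk samples, fewer cells of a type and less RNA per cell cannot be told apart.

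The upstream sequences of the 2 members that passed the test, Fzd7 and Nkd2, and of Wnt9b, which had the lowest log2 fold change, are shown because they are where TCF/LEF factors could meet these genes. Each is the 250 bases before an annotated start, 5′ to 3′ on the strand of the gene, from RefSeq (GRCm38.p6). The Fzd7 and Nkd2 windows border the ends of those genes. The Wnt9b window lies inside the span of its gene (103727362 to 103775272), so it precedes an internal start. Capitals mark the 5-base core CTTTG of the TCF/LEF motif, read on both strands (CAAAG on the other).
Fzd7 (chr1:59481897-59482146, plus strand): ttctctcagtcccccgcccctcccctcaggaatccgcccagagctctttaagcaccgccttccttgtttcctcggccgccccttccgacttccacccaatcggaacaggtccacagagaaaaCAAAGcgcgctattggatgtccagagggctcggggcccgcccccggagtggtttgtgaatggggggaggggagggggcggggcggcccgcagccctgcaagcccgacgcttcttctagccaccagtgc
Nkd2 (chr13:73847632-73847881, minus strand): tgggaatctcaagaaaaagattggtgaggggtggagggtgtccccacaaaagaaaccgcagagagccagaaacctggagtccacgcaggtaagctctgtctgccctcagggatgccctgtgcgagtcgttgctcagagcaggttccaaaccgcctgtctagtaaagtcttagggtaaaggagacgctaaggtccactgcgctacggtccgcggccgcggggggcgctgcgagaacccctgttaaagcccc
Wnt9b (chr11:103749822-103750071, minus strand): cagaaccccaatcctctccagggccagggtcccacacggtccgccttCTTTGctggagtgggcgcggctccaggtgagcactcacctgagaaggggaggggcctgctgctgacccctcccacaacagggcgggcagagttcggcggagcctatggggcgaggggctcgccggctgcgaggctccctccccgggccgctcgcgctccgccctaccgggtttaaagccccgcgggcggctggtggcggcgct
The core stood once in the Fzd7 window, beginning 128 bases before the start, and not in that of Nkd2. In the Wnt9b window it stood once, 203 bases before the internal start. Of all 32851 promoter windows of this length, 48.6% held the core. The longer forms CTTTGAT and CTTTGAA were in 7.48% of windows and in 0 of the 13 windows of the 9 members matched in the table. A match of letters is a description and does not show binding.

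Of the 10 genes, Fzd7 rose and Nkd2 fell in DOX, and the other 7 tested genes did not pass the threshold. The test was edgeR's quasi-likelihood test with Benjamini-Hochberg adjustment over 14439 genes at an adjusted p of 0.05. Changes are given as log2 fold changes of DOX against PBS, and ± on the log2 scale is the SE. These fold changes use TMM factors, unlike FPKM, so a pair of FPKM means can differ from them in size or sign. Lef1 had too few counts to be tested. Against these 2 of 9, 6.41% of all genes tested passed, 4.38% being higher and 2.04% lower in DOX, and the members were picked with earlier results known. An unadjusted p under 0.05 was found for 4 of the 9 and for 28.7% of all genes tested. The median log2 fold change was -0.21 over the 9 members and -0.01 over all genes tested. In CPM the groups did not overlap for 5 of the 9, where 34.6% of all tested genes did not overlap. The 5 were Fzd7 and Tcf7 (higher) and Wnt9b, Nkd1 and Nkd2 (lower). DESeq2 called 3 of the 9, adding Tcf7, and 19.8% of all genes.

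**Figure D1:**
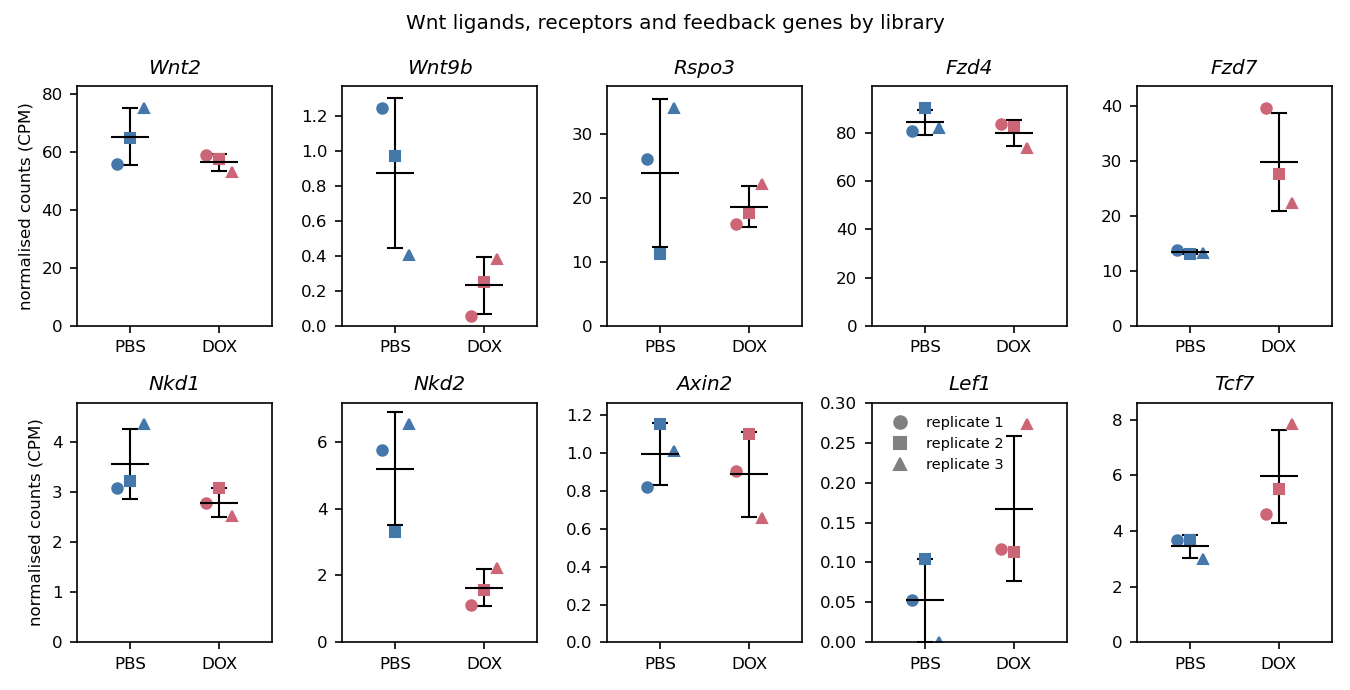
Normalised counts (CPM, vertical axes from 0) of the 10 genes in the 3 PBS and 3 DOX libraries, with 1 point per library and bars for mean ± SD. Fzd7 lies between 13.2 and 13.9 CPM in PBS and at 22.3 CPM or more in DOX, and Nkd2 at 3.30 CPM or more in PBS and 2.21 CPM or less in DOX.

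Per unit of gene length, Wnt2 was the most abundant of the 10 genes. In PBS it had 30.1 ± 4.98 FPKM (SD, n = 3), followed by Fzd4 at 12.2 ± 0.904 and Rspo3 at 10.4 ± 5.06 FPKM, whose libraries overlapped. Fzd7 stood at 2.92 ± 0.0273 FPKM, below both. Nkd2 (1.35 ± 0.436 FPKM) and Nkd1 (0.830 ± 0.173 FPKM) overlapped, and so did Axin2 (0.195 ± 0.0355 FPKM) and Wnt9b (0.158 ± 0.0757 FPKM), with Tcf7 at 0.284 ± 0.0313 FPKM above that pair. Lef1 was lowest at 0.0122 FPKM. In DOX the means of Wnt2, Fzd4, Rspo3 and Fzd7 were ordered as in PBS, with 23.8, 10.6, 7.46 and 5.91 FPKM. The libraries of Rspo3 and Fzd7 overlapped in DOX, where replicate 1 had 6.14 FPKM of Rspo3 and 7.62 FPKM of Fzd7. Nkd2, at a mean of 0.393 FPKM in DOX, stood under Nkd1 (0.595 FPKM) and under Tcf7 (0.454 FPKM), though its libraries overlapped with those of Tcf7.

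The ligand genes did not pass the test, and in CPM the groups overlapped for the more abundant one. Wnt2 (chromosome 6, 17985474 to 18032772, GRCm38) had 55.8, 64.9 and 75.4 CPM across PBS replicates 1 to 3 and 58.9, 57.5 and 53.0 CPM across DOX replicates 1 to 3. In CPM the groups overlapped, since PBS replicate 1 was within the DOX range. In FPKM, without TMM factors, they did not, with 25.1, 30.2 and 35.1 across PBS and 24.0, 23.9 and 23.6 across DOX. The log2 fold change was -0.21 (SE 0.12, adjusted p = 0.299 by edgeR), and -0.34 by library totals alone, a scaling that shifted the median of all genes to -0.14. With 1 library left out it lay between -0.31 (without PBS replicate 1) and -0.10 (without PBS replicate 3).

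Wnt9b (chromosome 11, 103727362 to 103775272), the second central vein ligand, was close to the limit of this depth, with 47, 37 and 16 counts across PBS replicates 1 to 3 and 2, 9 and 14 counts across DOX replicates 1 to 3. All DOX libraries were below all PBS libraries, by a small margin between PBS replicate 3 (0.404 CPM) and DOX replicate 3 (0.382 CPM). The log2 fold change was -1.89 (SE 0.67, adjusted p = 0.121 by edgeR, unadjusted p = 0.0259), and DESeq2 did not call it either (adjusted p = 0.0703).

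Rspo3 (chromosome 10, 29453106 to 29535867), whose product amplifies the Wnt response, was spread widely in PBS, with 26.1, 11.3 and 34.1 CPM in replicates 1, 2 and 3. DOX replicates 1, 2 and 3 had 15.9, 17.7 and 22.2 CPM, all inside the PBS range. Its log2 fold change of -0.36 (SE 0.37, adjusted p = 0.563 by edgeR) was -0.70 without PBS replicate 2 and -0.01 without PBS replicate 3. In the same libraries the stellate markers summed to 1061, 960.2 and 2233 CPM in PBS and 1627, 1732 and 1107 CPM in DOX, for replicates 1 to 3. PBS replicates 2 and 3 were the lowest and the highest of PBS in both, while DOX replicate 3 had the most Rspo3 and the lowest stellate sum of DOX. Per 1000 stellate marker counts Rspo3 was still spread in PBS, at 24.6, 11.8 and 15.3. The part of stellate RNA in this spread was not tested.

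Of all Wnt ligand genes, Wnt2 and Wnt9b included, 8 of the 14 in the table were tested and none passed in edgeR. Wnt9b alone had an unadjusted p under 0.05, and the median log2 fold change was -0.34. DESeq2 called none of them. The next most abundant per length after Wnt2 was Wnt4, with 0.319 FPKM in PBS and 0.580 FPKM in DOX (0.97 ± 0.48 on the log2 scale, edgeR adjusted p = 0.231). Wls, the carrier that brings Wnt proteins to the cell surface, had 99.3 (PBS) and 86.7 CPM (DOX), and Porcn, the enzyme that attaches their lipid, 0.286 and 0.491 CPM, with edgeR adjusted p of 0.235 and 0.239. Of the R-spondins and their receptors 4 of 8 were tested and none passed in edgeR or DESeq2, nor had an unadjusted p under 0.05. Lgr4, an R-spondin receptor, had 3.22 (PBS) and 4.24 CPM (DOX) (edgeR adjusted p = 0.357).

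**Figure D2:**
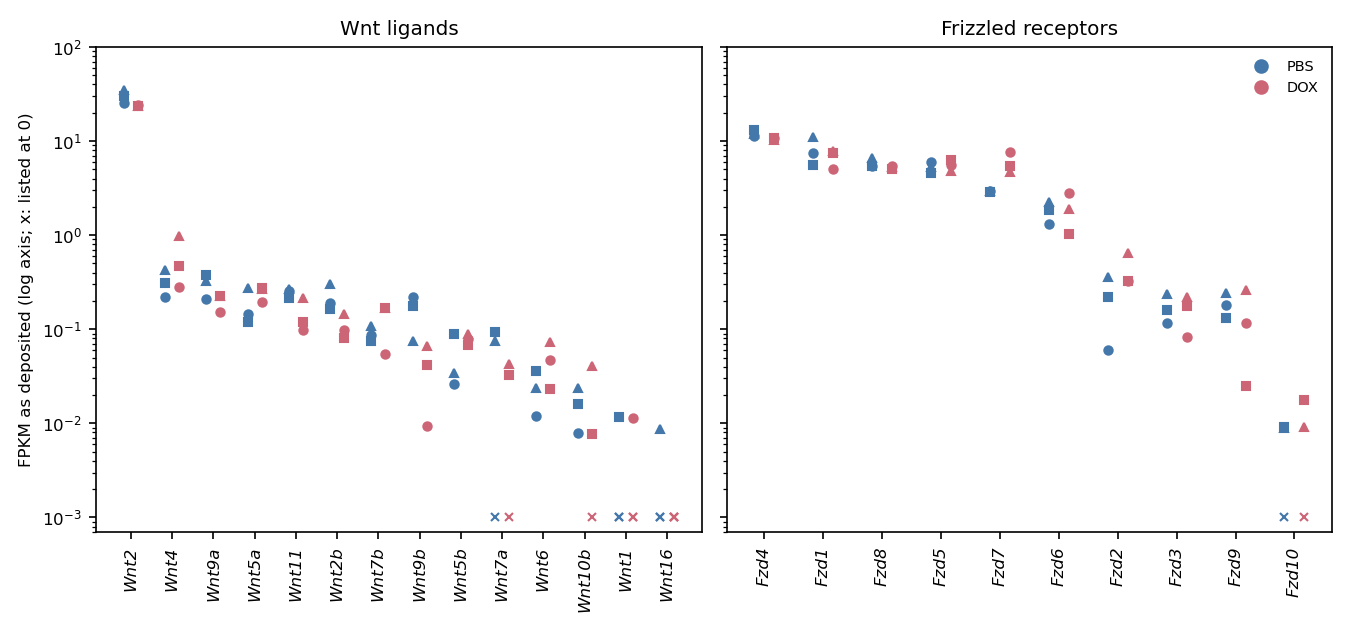
Deposited FPKM (log axis) of the Wnt ligand and Frizzled receptor genes in the table, with 1 point per library, blue for PBS and red for DOX; crosses mark libraries listed at 0. Wnt2 stands near 30.1 FPKM in PBS, far above the other ligands, while 5 receptor genes lie between 2.92 and 12.2 FPKM in PBS and Fzd7 is higher in every DOX library.

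Fzd7 was the receptor gene that rose. Fzd7 (chromosome 1, 59482147 to 59486955) encodes a Frizzled receptor for Wnt ligands. PBS replicates 1, 2 and 3 had 13.9, 13.2 and 13.4 CPM and DOX replicates 1, 2 and 3 had 39.7, 27.7 and 22.3 CPM. The PBS libraries lay within a narrow band, and each DOX library was above it. The rise was 2.22-fold, from 13.5 ± 0.353 to 29.9 ± 8.92 CPM (SD, n = 3 each), or 1.15 ± 0.21 on the log2 scale (edgeR adjusted p = 0.0314). The call was lost with any library left out other than DOX replicate 3, with edgeR adjusted p between 0.0564 and 0.112 and log2 fold changes between 0.90 and 1.20. Without PBS replicate 2 or 3, edgeR called 0 of all genes.

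Fzd4 (chromosome 7, 89404366 to 89410110), a receptor for Wnt ligands and for norrin, had 80.8, 90.2 and 81.8 CPM in PBS replicates 1, 2 and 3. The DOX libraries had 83.5, 82.3 and 73.8 CPM, which overlapped with PBS. In FPKM, without TMM factors, the groups did not overlap, with 11.43, 13.2 and 11.97 across PBS and 10.67, 10.75 and 10.3 across DOX. The log2 fold change of Fzd4 was -0.08 (SE 0.09, adjusted p = 0.605 by edgeR), and -0.21 by library totals alone. With 1 library left out it lay between -0.11 without PBS replicate 1 and -0.02 without DOX replicate 3. Fzd7 was the 1 of 9 tested Frizzled genes that passed in edgeR. Fzd1, the second most abundant receptor gene per length, had 33.5 (PBS) and 30.9 CPM (DOX) (-0.12 ± 0.26 on the log2 scale, edgeR adjusted p = 0.805). Fzd2, named after its value was seen, had a log2 fold change of 1.14 close to that of Fzd7, but from 0.736 CPM in PBS and with a larger error (SE 0.60, adjusted p = 0.258 by edgeR).

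Macrophage RNA as a sum of its markers, like Fzd7, was higher in each DOX library than in any PBS library. The 18 macrophage markers summed to 4762, 6947 and 4564 CPM across PBS replicates 1 to 3 and to 15480, 8473 and 9684 CPM across DOX replicates 1 to 3. Within groups the order of the libraries differed: Fzd7 and that sum were both highest in DOX replicate 1, but DOX replicate 2 had the lower sum and more Fzd7 than DOX replicate 3, and PBS replicate 2 had the highest sum of PBS and the lowest Fzd7. In that list 3 of 17 tested genes rose and none fell in edgeR, DESeq2 called 13 higher, and 14 of 17 had an unadjusted p under 0.05. Its part in the rise of Fzd7 was not tested. The 3 genes with a pattern most like that of Fzd7 over the 6 libraries, among genes with a mean of at least 5 CPM, were Rap2c, a small GTPase gene, Ldha, which encodes a lactate dehydrogenase subunit, and Rap1gap2, which encodes a GTPase-activating protein. Their root mean square difference from Fzd7 on the centred log2 CPM scale was 0.0645, 0.0782 and 0.0897.

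None of the 9 tested co-receptors and accessory receptor genes passed in edgeR. Tspan12, a partner of Fzd4 in norrin signalling, was the most abundant per length, with 50.0 FPKM in PBS and 46.4 FPKM in DOX. With TMM factors its log2 fold change was 0.02 (SE 0.15), of the opposite sign. Ryk, a receptor with a Wnt-binding domain, had 14.0 and 10.5 FPKM (-0.29 ± 0.14 on the log2 scale). In this list 1 gene, Adgra2, had an unadjusted p under 0.05 (edgeR adjusted p = 0.109), and DESeq2 called it lower. Adgra2, named after its value was seen, encodes an adhesion receptor that assists Wnt7 signals in brain vessels.

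Nkd2 fell, and the feedback genes Nkd1 and Axin2 did not pass. Nkd2 (chromosome 13, 73818534 to 73847631) encodes a Dishevelled-binding inhibitor of Wnt signals. It had 5.75, 3.30 and 6.52 CPM across PBS replicates 1 to 3 and 1.11, 1.58 and 2.21 CPM across DOX replicates 1 to 3. Every DOX library was below every PBS library. The fall was 3.17-fold, from 5.19 ± 1.68 to 1.63 ± 0.551 CPM (SD, n = 3 each), or -1.66 ± 0.36 on the log2 scale (edgeR adjusted p = 0.0455). The call was lost in limma-voom (adjusted p = 0.0546) and with any library left out other than DOX replicate 3 (edgeR adjusted p between 0.0754 and 0.142, log2 fold change between -1.91 and -1.45).

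The 3 genes with a pattern most like that of Nkd2 were Gpr176, which encodes an orphan receptor, Mir100hg, a microRNA host transcript, and Thbs1, a matricellular protein gene. Their root mean square differences from Nkd2 were 0.199, 0.248 and 0.273, larger than those of the neighbours of Fzd7. Of the 18 stellate markers, all tested, 0 were called by edgeR, 1 by DESeq2 (Acta2, an actin gene of activated stellate cells, lower) and 2 with an unadjusted p under 0.05. For every 1000 counts of the stellate markers there were 5.42, 3.43 and 2.92 of Nkd2 across PBS replicates 1 to 3 and 0.683, 0.910 and 2.00 across DOX, a ratio chosen after the data were seen. The DOX ratios were below each PBS ratio.

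Nkd1 (chromosome 8, 88521342 to 88594887), the paralog of Nkd2 and a common beta-catenin target, had 3.08, 3.22 and 4.34 CPM across PBS replicates 1 to 3 and 2.78, 3.07 and 2.51 CPM across DOX. The groups met without overlapping, since PBS replicate 1 and DOX replicate 2 were nearly equal. The log2 fold change was -0.35 (SE 0.23, adjusted p = 0.364 by edgeR), and -0.18 without PBS replicate 3. Whether Nkd2 and Nkd1 differed in their change was not tested. Axin2 (chromosome 11, 108917828 to 108950783), a scaffold of the degradation complex that is itself induced by beta-catenin, had 31, 44 and 40 counts across PBS replicates 1 to 3 and 31, 39 and 24 counts across DOX. These overlapped, with a log2 fold change of -0.17 (SE 0.32, adjusted p = 0.776 by edgeR), and the sign turned without DOX replicate 3 (0.01).

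Of the 17 Dishevelled and degradation complex genes, all tested, Nkd2 and Dvl2 fell and none rose in edgeR. DESeq2 called 3, adding Csnk1a1, a casein kinase gene, as higher (0.22 on the log2 scale, DESeq2 adjusted p = 0.0313; edgeR adjusted p = 0.135). The median log2 fold change was -0.17, against -0.01 over all genes. Dvl2, which encodes a Dishevelled protein, fell from 29.1 ± 0.523 to 22.1 ± 0.594 CPM (SD, n = 3 each), or -0.40 ± 0.09 on the log2 scale (edgeR adjusted p = 0.0455). Dvl1 and Dvl3, both named after their values were seen, stood at -0.25 and -0.26 on the log2 scale (edgeR adjusted p = 0.135 and 0.123). The groups did not overlap for 8 of the 17 on the lower side and for 1, Csnk1a1, on the higher side, beside 17.7% and 16.9% of all tested genes. Ctnnb1, the beta-catenin gene, was the most abundant per length, with 526 FPKM in PBS and 417 FPKM in DOX (-0.21 ± 0.11 on the log2 scale, edgeR adjusted p = 0.248). Csnk1d, a casein kinase gene, followed with 47.3 and 45.6 FPKM. With TMM factors its log2 fold change was 0.07 (SE 0.10), of the opposite sign.

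Secreted antagonists had no call in edgeR or DESeq2 among 6 tested of 11, with 1 at an unadjusted p under 0.05. Frzb, a secreted Frizzled-related protein gene, had 18.1, 6.04 and 22.4 CPM across PBS replicates 1 to 3 and 7.99, 9.21 and 10.1 CPM across DOX. PBS replicate 2 was lowest of all libraries, as it was for Rspo3, and the log2 fold change was -0.77 (SE 0.43, adjusted p = 0.283 by edgeR). Dkk3, a Dickkopf family gene, had 1.85 FPKM in PBS and 1.61 FPKM in DOX.

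**Figure D3:**
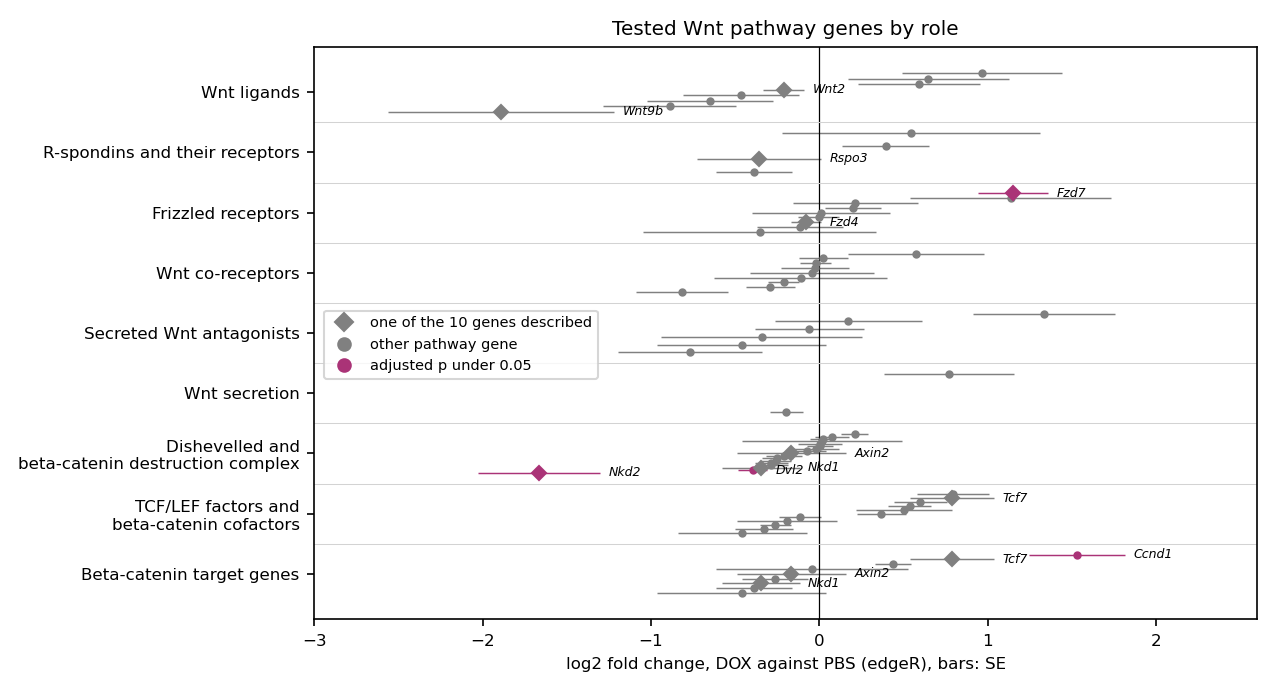
Log2 fold change of DOX against PBS (horizontal axis, bars for SE) of the tested Wnt pathway genes by role, with diamonds for the 10 genes described, circles for others and purple for an edgeR adjusted p under 0.05; genes in 2 lists appear in both. Fzd7 (1.15) and Ccnd1 (1.53) are the called genes on the higher side, Nkd2 (-1.66) and Dvl2 (-0.40) those on the lower side.

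The transcription factor genes Tcf7 and Lef1 were low, and Tcf7 was not called by edgeR. Both encode DNA-binding partners of beta-catenin that are also known as factors of T lymphocytes. Tcf7 (chromosome 11, 52246527 to 52283383) had 3.69, 3.69 and 2.98 CPM across PBS replicates 1 to 3 and 4.59, 5.49 and 7.83 CPM across DOX. The DOX libraries were all above PBS. The log2 fold change was 0.79 (SE 0.25, adjusted p = 0.0974 by edgeR), and DESeq2 called it (adjusted p = 0.0219). Lef1 (chromosome 3, 131110297 to 131224357) had 2, 4 and 0 counts across PBS replicates 1 to 3 and 4, 4 and 10 counts across DOX, too few to compare.

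T cell transcripts stood beside Tcf7. The Cd3d, Cd3e and Cd3g counts together were 92, 47 and 18 across PBS replicates 1 to 3 and 175, 88 and 205 across DOX, a sum chosen after the data were seen. Both it and Tcf7 were highest in DOX replicate 3, but DOX replicate 2 had fewer Cd3 counts and more Tcf7 than DOX replicate 1, and across PBS the Cd3 counts ranged widely while Tcf7 had 139, 141 and 118 counts. Of 13 tested T cell markers, Cd4, a co-receptor that macrophages can also carry, rose from 1.89 ± 0.814 to 5.53 ± 1.20 CPM (SD, n = 3 each; edgeR adjusted p = 0.0477), none fell in edgeR, DESeq2 called 4 higher, and 6 had an unadjusted p under 0.05. The list summed to 48.3 to 151 CPM in PBS and 55.5 to 98.5 CPM in DOX, and most of that sum was Il7r, the interleukin 7 receptor gene, with 74.5 (PBS) and 52.9 CPM (DOX). The part of T cell RNA in the Tcf7 values was not tested.

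Of 11 tested TCF/LEF factors and beta-catenin cofactors none passed in edgeR, while 6 had an unadjusted p under 0.05. DESeq2 called 4 of them higher, namely Tcf7, Tle3, Tle4 and Bcl9. Tle3, a corepressor gene, had 59.3 (PBS) and 89.8 CPM (DOX) (0.60 ± 0.16 on the log2 scale, edgeR adjusted p = 0.0658). Pygo2, a reader protein gene of the beta-catenin complex, had 41.6 and 34.7 CPM (-0.26 ± 0.09 on the log2 scale, edgeR adjusted p = 0.123). Tle4, another corepressor gene, and Bcl9, which encodes a beta-catenin adaptor, were named after their values were seen and had log2 fold changes of 0.54 and 0.79 (edgeR adjusted p = 0.0517 and 0.0723).

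Among 9 tested of 15 beta-catenin target genes, Ccnd1 rose and none fell in edgeR. DESeq2 called 3 of these targets, all higher, namely Tcf7, Ccnd1 and Cd44. Ccnd1, the cyclin D1 gene that many growth signals also induce, had 1210, 1703 and 1504 counts across PBS replicates 1 to 3 and 5587, 3074 and 2972 counts across DOX. The groups did not overlap, and the log2 fold change was 1.53 (SE 0.29, adjusted p = 0.0334 by edgeR). Myc, the most abundant target per length in PBS, had 110 FPKM in PBS and 84.8 FPKM in DOX (-0.26 ± 0.20 on the log2 scale), and Cd44, a hyaluronan receptor gene and the most abundant in DOX, 82.7 and 102 FPKM (0.44 ± 0.11 on the log2 scale, edgeR adjusted p = 0.0564). Znrf3, a target named after its value was seen, had 5.10 (PBS) and 3.89 CPM (DOX) (-0.39 ± 0.23 on the log2 scale, edgeR adjusted p = 0.305). Other targets had almost no reads. Sp5 had 1 read in 1 library, and for Lgr5 there were 0, 1 and 0 counts across PBS replicates 1 to 3 and 1, 3 and 4 across DOX. Over the 9 pathway lists together, which include the members, 70 of 101 genes were tested and 4 passed (Fzd7, Nkd2, Dvl2 and Ccnd1), or 5.71% beside 6.41% of all genes. DESeq2 called 11 of the 70, beside 19.8% of all genes. The call of Ccnd1 was lost without PBS replicate 1, 2 or 3, and Dvl2 was not called with any 1 library left out.

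Set against endothelial RNA, the groups overlapped for 5 of the 10 genes and did not for Fzd4, Fzd7, Nkd2, Tcf7 and the barely counted Lef1, on a scale where the groups did not overlap for 31.5% of all genes tested. For every 1000 counts of the 20 endothelial markers, Wnt2 had 7.27, 7.16 and 8.17 counts across PBS replicates 1 to 3 and 7.58, 7.41 and 8.21 across DOX. The difference of the mean log2 ratio was 0.04, and the lower mean of Wnt2 in CPM was not seen on this scale. The endothelial markers themselves had a median log2 fold change of -0.34, with 3 of 20 called lower (Ptprb, Mmrn2 and Tek) and none higher by edgeR. DESeq2 called 10 of the 20, with Clec4g, a lectin gene of sinusoidal endothelium, higher and the other 9 lower. Rspo3, Axin2 and Nkd1 had differences of 0.01, 0.06 and -0.09 with overlapping groups.

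Fzd7 and Nkd2 stood apart between the groups on this scale as they did in CPM. The ratio of Fzd7 was 1.81, 1.46 and 1.45 across PBS replicates 1 to 3 and 5.11, 3.57 and 3.46 across DOX, a log2 difference of 1.35. That of Nkd2 was 0.749, 0.364 and 0.706 in PBS and 0.143, 0.203 and 0.342 in DOX, a log2 difference of -1.42. The exact two-sided permutation test gave p = 0.1 for each, the smallest that 3 against 3 can give, so it cannot reach the threshold for any of the 10 ratios. Wnt9b had ratios of 0.162, 0.107 and 0.0438 in PBS and 0.00753, 0.0327 and 0.0592 in DOX, which overlapped. Fzd4 did not overlap when set against all 20 markers (log2 difference 0.16) and overlapped against Cdh5 alone, where the groups did not overlap for 25.7% of all genes tested. Tcf7 had ratios of 0.480, 0.407 and 0.323 in PBS and 0.591, 0.707 and 1.21 in DOX, each DOX ratio being above PBS. Set against stellate markers, a denominator chosen after the data were seen, the groups did not overlap for Fzd7 and Nkd2 alone of the 10, and for 6.54% of all genes tested.

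**Figure D4:**
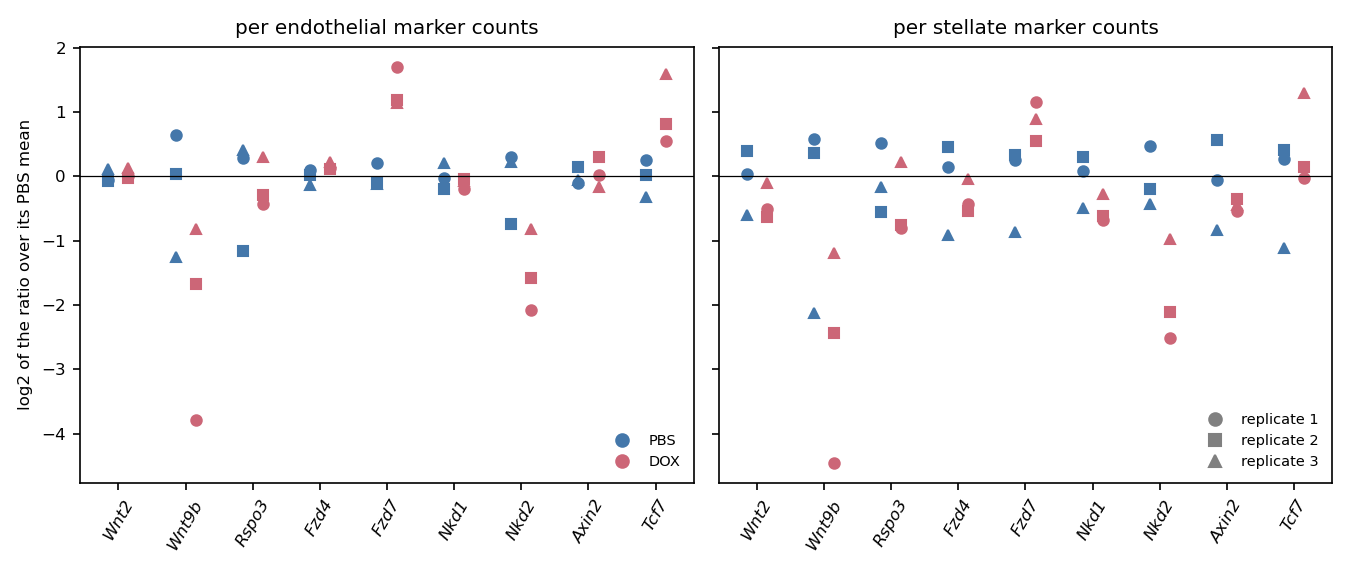
Log2 of each gene's ratio to the summed endothelial marker counts (left) or stellate marker counts (right), relative to the mean ratio in PBS, with 1 point per library, blue for PBS and red for DOX; Lef1 is left out because of a count of 0. Fzd7 and Nkd2 are separated between groups in both panels, and Wnt2 lies near 0 on the left.

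Of the 16 genes that mark the position of endothelial cells along the sinusoid, 1 passed. The 9 genes of the central vein side had 0 calls in edgeR and in DESeq2, 2 with an unadjusted p under 0.05, and their median log2 fold change was -0.02. Fabp4, a fatty acid binding protein gene, had 211 (PBS) and 220 CPM (DOX), and Selp, the P-selectin gene, 489 and 640 CPM (edgeR adjusted p = 0.850 and 0.476). Of 7 genes of the portal side Msr1 rose, from 247 ± 20.4 to 575 ± 99.3 CPM (SD, n = 3 each; edgeR adjusted p = 0.0206). Msr1 encodes a scavenger receptor that macrophages also express, and the macrophage marker sum was higher in each DOX library than in any PBS library. The part of macrophage RNA in the rise of Msr1 was not tested. Ltbp4, a latent TGF-beta binding protein gene, had 181 and 224 CPM (edgeR adjusted p = 0.546).

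Pericentral hepatocyte genes, the known targets of these ligands in neighbouring cells, were counted in the same libraries. Of 8 tested none passed in edgeR and 3 had an unadjusted p under 0.05, while DESeq2 called Glul and Cyp2e1 higher. The median log2 fold change was 0.71. Glul, the glutamine synthetase gene that other liver cells express too, had 135 (PBS) and 176 CPM (DOX) (0.38 ± 0.11 on the log2 scale, edgeR adjusted p = 0.0817). Oat, the ornithine aminotransferase gene, had 82.0 and 86.6 CPM. The 13 hepatocyte markers, all with a log2 fold change above 0 and 1 called by edgeR (Serpina3k) and 7 by DESeq2, summed to 157.5 to 387.4 CPM in PBS and 301 to 3529 CPM in DOX, with Alb and Ahsg the most abundant. The hepatocyte part in these values was not tested.

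Markers of other cell types were measured in the same way. The 9 NK and innate lymphoid markers summed to 0.732 to 2.36 CPM in PBS and 8.05 to 17.9 CPM in DOX, with 5 of 6 tested called higher by edgeR and 6 by DESeq2, and Gzma and Xcl1 the most abundant over all 6 libraries, though Gzma (0.176 CPM in PBS) ranked first in DOX only. The 8 B cell markers summed to 2.77 to 3.61 and 3.21 to 6.47 CPM with none of 5 called by edgeR or DESeq2 and 2 with an unadjusted p under 0.05. The 7 cholangiocyte markers summed to 17.7 to 59.9 and 68.5 to 108 CPM, with Epcam called higher by edgeR among 6, and 2 by DESeq2. The 9 portal fibroblast and mesothelial markers summed to 127.7 to 299.4 and 257.6 to 473.4 CPM, with none called by edgeR, 2 by DESeq2 (Krt8 higher, Pi16 lower) and 2 with an unadjusted p under 0.05.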

How the data were processed

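RNA-seq of 6 libraries was analysed. The authors deposited raw counts for 22905 gene symbols and FPKM values of the same genes, with replicates not pooled, per the file headers. Each nonzero FPKM was the count per length and library total within a relative tolerance of 1e-04. The aligner, the counting tool and the use of strand were not stated in the labels. The submitters' processing notes list GRCm38, mm10 and hg38 without saying what each was for. Reads of overlapping antisense genes, annotated by GENCODE at Rspo3, Axin2, Lef1, Tcf7 and Nkd2, therefore cannot be told apart.

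The test was edgeR 4.0.16 (glmQLFit, glmQLFTest, R 4.3.3) with TMM scaling, a group term, filterByExpr (minimum count 10, total 15; 14439 genes kept) and two-sided Benjamini-Hochberg adjustment over all genes. DESeq2 1.42.0 and limma 3.58.1 (voom, and log2(FPKM + 1) or log2(FPKM + 0.1)) were alternatives. The code was tested on simulated data. SE values come from the F statistic. No pair of replicates agreed within sampling noise (chi-square per degree of freedom 41.6 to 88.5). Coordinates are of RefSeq GRCm38.p6, in which 95.4% of symbols were found.

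Members, lists and the naming rule were chosen with earlier results of these data known. The rule took all members, up to 6 called genes of each pathway list with a mean of at least 1 CPM, its 2 most abundant genes by FPKM over all 6 libraries, the 2 most abundant markers of other cell types, and for each called member the 3 genes of at least 5 CPM nearest in centred log2 CPM (prior count 2). Genes outside the rule, abundant ones as well as ones with few counts, were named after their values were seen.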

Additional observations from a re-analysis of the deposited data

How the results depend on the processing

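The members called numbered 2. They numbered 1 (Fzd7) with at least 5 CPM in 3 libraries, a filter that left Nkd2 untested, in limma-voom and with the replicate block, and between 0 and 2 with each library left out. The pathway genes called numbered 4, 11 in DESeq2 and between 0 and 4 with each library left out. All genes called numbered 926, 2692 in DESeq2, and between 0 and 1090 with each library left out: 0 were called without PBS replicate 2 (smallest edgeR adjusted p = 0.0663) or PBS replicate 3 (0.0634), leaving out DOX replicate 1 gave 85, and leaving out DOX replicate 2 gave 438. Scaled by library totals, 611 calls were higher and 730 lower, against 632 and 294, and log2(FPKM + 1) gave 423 and 402 and log2(FPKM + 0.1) 494 and 464. The log2 fold change of Axin2 lay between -0.35 without DOX replicate 2 and 0.013 without DOX replicate 3, where its sign turned. Of the members called, Fzd7 kept its call in 10 of 15 alternatives and Nkd2 in 7 of 14. Members whose groups did not overlap per endothelial transcripts numbered 5 of 10 (31.5% of all genes tested), and 2 per stellate transcripts (6.54%), a denominator added after the data were seen. Except where a changed filter or fewer samples set the value, the cause was not tested. The replicate numbers share only a number: same-numbered deviations correlated at 0.0949, -0.106 and 0.232. With the replicate block 781 genes were called. The 4 pathway calls were then Fzd7, Bcl9, Tle3 and Tle4, all higher, without Ccnd1, Dvl2 and Nkd2, and Nkd2 had a log2 fold change of -1.66 (edgeR adjusted p = 0.053). At this depth Lef1, Wnt9b and Axin2 rest on few reads.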
